A study of Mus musculus with 6 samples.

Results

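The Zfp53 cluster is a row of 7 zinc finger genes on mouse chromosome 17 of the mm10 build, which lie on the + strand in the order Zfp160, Zfp677, Zfp54, Zfp51, Zfp53, Zfp52 and Zfp948. These 7 were taken from the 16911 gene symbols that the 19048 rows of the table carry, and each of the 7 had a single row. They were chosen by position and name and with their measured levels in knockout and wild-type libraries already known. The knockout against wild-type values of the 7 are therefore given as a description, without a test.

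The RNA came from naive CD4 T cells, helper T cells before their first contact with antigen, of C57BL/6 mice. The KO group held 3 libraries of TRIM28KO mice (KO1 to KO3) and the WT group 3 libraries of their wild-type littermates (WT1 to WT3). The promoter that drives any Cre, the deleted part of Trim28, the age of the mice and whether each library is 1 mouse are not given in the sources used here. Errors and p-values measure the spread between libraries, part of which may be technical. Stimulated cells, which the title of the series names, are not analysed here.

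All 7 genes encode proteins with a row of C2H2 zinc fingers, small folds that each contact a few bases of DNA, behind a KRAB box, the segment that binds the corepressor Trim28. Trim28 in turn brings the histone methyltransferase Setdb1, which marks chromatin for silencing, and the best known targets of such proteins are retroelements in embryonic cells. KRAB zinc finger genes arose largely by tandem duplication and often sit in clusters, and in human cells TRIM28 has been mapped to the finger exons of many of them.

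The cluster was read in 3 stretches, with the spans of the RefSeq genes as coordinates. Zfp160 (row NM_145483, chr17:21008941-21028857) stood alone, 354.9 kb before the others. Zfp677 (NM_172486, chr17:21383707-21399265), Zfp54 (NM_011760, chr17:21423227-21435384) and Zfp51 (NM_009558, chr17:21450374-21465591) followed with gaps of 24 and 15 kb. Zfp53 (NM_013843, chr17:21488934-21533201), Zfp52 (NM_144515, chr17:21533725-21563362) and Zfp948 (NM_001002008, chr17:21565816-21589324) were the most closely packed by gene span. The spans of Zfp53 and Zfp52 were 0.5 kb apart and those of Zfp52 and Zfp948 2.5 kb. The promoters of Zfp52 and Zfp948 printed below lie inside their spans, so transcripts of these genes can lie further apart.

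Promoters of 6 of the 7 genes were matched in a RefSeq table of the GRCm38.p6 assembly, which gives 250 bases before to 50 bases after the start site of a gene, and the gene without an entry was Zfp51. The 4 promoters printed here are those that hold the longest run of bases found in 4 of the 6, and the run is in capitals in each. It is 10 bases long.
Zfp54, chr17:21422977-21423276, + strand: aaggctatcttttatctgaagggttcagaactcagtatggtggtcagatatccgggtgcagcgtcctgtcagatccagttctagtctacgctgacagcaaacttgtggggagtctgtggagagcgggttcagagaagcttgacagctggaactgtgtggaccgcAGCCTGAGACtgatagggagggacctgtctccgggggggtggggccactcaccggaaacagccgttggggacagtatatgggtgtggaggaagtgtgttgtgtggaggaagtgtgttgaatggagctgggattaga
Zfp53, chr17:21488738-21489037, + strand: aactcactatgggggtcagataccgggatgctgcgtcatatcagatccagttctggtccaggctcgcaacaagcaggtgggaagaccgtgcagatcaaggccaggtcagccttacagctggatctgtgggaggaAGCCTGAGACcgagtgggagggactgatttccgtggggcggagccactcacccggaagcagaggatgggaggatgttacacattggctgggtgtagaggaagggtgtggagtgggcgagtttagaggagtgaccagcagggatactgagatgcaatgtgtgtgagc
Zfp52, chr17:21535289-21535588, + strand: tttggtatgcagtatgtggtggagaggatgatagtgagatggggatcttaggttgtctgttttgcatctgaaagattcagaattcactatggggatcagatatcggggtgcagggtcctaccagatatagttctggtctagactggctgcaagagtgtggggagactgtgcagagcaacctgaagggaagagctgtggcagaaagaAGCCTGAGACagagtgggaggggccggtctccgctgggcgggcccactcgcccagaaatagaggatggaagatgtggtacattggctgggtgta
Zfp948, chr17:21566728-21567027, + strand: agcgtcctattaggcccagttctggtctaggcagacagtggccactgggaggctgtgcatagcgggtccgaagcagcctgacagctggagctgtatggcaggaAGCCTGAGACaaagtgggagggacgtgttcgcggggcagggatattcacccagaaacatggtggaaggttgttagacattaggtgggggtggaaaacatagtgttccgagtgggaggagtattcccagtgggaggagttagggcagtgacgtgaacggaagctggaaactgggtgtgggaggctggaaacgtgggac
Counted from the start site, the capitals begin at base -86 in Zfp54, -116 in Zfp53, -44 in Zfp52 and -147 in Zfp948. Over the 24 bases that open with the run, Zfp52 and Zfp948 each differ from Zfp53 at 2 bases and Zfp54 at 3. On the strand of the gene, 15 of 27025 promoters hold the run, which is 0.0555%, and on either strand 45 do, which is 0.167%. The run was picked from the cluster's own promoters, which are counted here, so nothing is read from these shares. None of the 11 genes outside the cluster that hold it on their own strand is on chromosome 17. Of those 11 genes, 3 are in the table and 2 were tested, H1f2 with a log2 fold change of -0.12 and 9930021J03Rik with 0.15, and limma called neither. The run is a match of letters and is not known here to bind a factor, and it is present in Zfp54, whose KO and WT values overlapped, as well as in the 3 genes whose values did not.

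Other promoter features varied among the genes. The number of CpG dinucleotides was 12 in Zfp160, 10 in Zfp677, 8 in Zfp54, 9 in Zfp53, 5 in Zfp52 and 10 in Zfp948, against a median of 7 over all promoters. Searched on both strands, the GC box letters GGGCGG were in Zfp160, Zfp677, Zfp53 and Zfp52 and in 35.9% of all promoters. The CCAAT letters were in Zfp677, Zfp53 and Zfp52 and in 37.9% of all, and CCATNTT, the core of the YY1 motif, was in Zfp677 and Zfp948 and in 16.3% of all. The TATAAA letters were in 0 of the 6 and in 14.2% of all. Zfp53 shared 6 runs of 12 bases with Zfp52 and 6 with Zfp948. None of the 27024 other promoters shared more with it, and promoters outside the cluster, Gm35222, Gm39059 and Gm30880 among them, shared 6 as well.

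The encoded proteins, translated from the GENCODE transcripts, had from 12 fingers (Zfp54) to 18 (Zfp160 and Zfp51), with 16 in Zfp677, 15 in Zfp53, 14 in Zfp52 and 15 in Zfp948. Their median was 15, against 12 over the 229 genes of the table whose protein had at least 5 fingers and a KRAB A box. The most alike pair was Zfp51 and Zfp53, at 75.5% identity over 640 aligned residues. These neighbours shared the set of base-contacting residues in 6 fingers, out of 18 in Zfp51 and 15 in Zfp53. The sets were matched at any place in the proteins, and the longest run shared in order was 1 finger. Zfp53 and Zfp52 were 64.5% identical with 1 shared contact set, and the least alike pair was Zfp160 and Zfp948, at 45.7%. No stretch of 100 bases, the length of a read, was common in sense to any of the 7 transcripts and another GENCODE gene. Whole reads of 1 member therefore had no exact match in another.

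The libraries held 44372701, 22005759 and 36810371 recovered reads in KO1, KO2 and KO3, and 23438722, 29687968 and 40586195 in WT1, WT2 and WT3. Trim28, which checks the labels, had normalized read counts of 738, 628 and 1247 in KO1, KO2 and KO3, against 8429, 8287 and 9428 in WT libraries, or 9.99% of the WT mean. Cd3e, Cd3d and Cd4 together were at 52102 to 62080 in KO libraries and 57657 to 58894 in WT libraries. KO3 stood apart in summed markers of other cells, with 1938 for 8 B cell genes, 4416 for 2 CD8 T cell genes, 2444 for 6 myeloid genes, 1349 for 4 NK cell genes and 4200 for 4 regulatory T cell genes. The other KO libraries reached at most 241, 755, 1059, 248 and 1946 for those lists, and the WT libraries at most 381, 1065, 1587, 250 and 1732. Most of the regulatory T cell sum of KO3 was Ikzf2 (3249), and Ikzf2, Il2ra (714) and Ctla4 (234) each peaked in that library. Foxp3, the remaining gene of that list, had low counts throughout and its minimum in KO3 (2.39), with 6.97 to 11.4 elsewhere. The row taken for Foxp3 need not hold all reads of the gene. Whether KO3 held more regulatory T cells therefore cannot be told from these values. Of the genes in these lists Il2ra alone was called, and no gene was at 0 in all libraries. The summed red cell and platelet markers overlapped between the groups. KO2 and WT1 held summed Y-linked transcripts of 12677 in KO2 and 13625 in WT1, against at most 2.39 in the other 4 libraries, and Xist at 16359 in KO2 and 12289 in WT1 beside them.

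Zfp53 had the highest mean level per kb of the cluster in both groups and the largest difference between them. Its normalized read count was 22591, 30777 and 22333 in KO1, KO2 and KO3, against 4731, 5058 and 4556 in WT1, WT2 and WT3. The lowest KO library was 4.42 times the highest WT library, and KO2 was the highest of the KO libraries. The mean was 25233 ± 4803 in KO cells and 4782 ± 254 in WT cells (SD, n = 3 each), a KO over WT ratio of 5.28. In the limma fit on log2 of the normalized count plus 1, the log2 fold change was 2.38 (SE 0.13). These means rest on 80781 reads in KO libraries and 13888 in WT libraries. In bulk RNA of this kind, more cells that express a gene and more RNA per cell cannot be told apart.

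Zfp52, the next gene after Zfp53, differed less. It stood at 2077, 2518 and 2433 normalized reads in KO1, KO2 and KO3, against 1030, 1166 and 1021 in WT1, WT2 and WT3. The groups lay apart, with the lowest KO library at 1.78 times the highest WT library. The mean was 2343 ± 234 in KO cells and 1073 ± 81.3 in WT cells (SD, n = 3 each), and the log2 fold change 1.12 (SE 0.11).

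Zfp948, the last gene of the row, had the lowest counts. They were 405, 484 and 430 in KO1, KO2 and KO3, against 258, 172 and 211 in WT1, WT2 and WT3. No KO value reached down to the WT values, and the lowest KO library was 1.57 times the highest WT library. The mean was 439 ± 40.4 in KO cells and 213 ± 43.2 in WT cells (SD, n = 3 each), with a log2 fold change of 1.05 (SE 0.17) from 1438 reads in KO libraries and 614 in WT libraries.

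The 4 genes before Zfp53 had overlapping groups. Zfp51, the closest relative of Zfp53 in protein sequence, ends 23.3 kb before it and was at 2918, 3747 and 2766 in KO1, KO2 and KO3, against 3751, 3262 and 3243 in WT1, WT2 and WT3. KO2 was just under the highest WT library and the other KO libraries lay below all of WT, and the log2 fold change was -0.13 (SE 0.13). Zfp54 was at 732, 1004 and 643 in KO1, KO2 and KO3, against 667, 750 and 575 in WT1, WT2 and WT3. For Zfp54 KO2 was the highest library and WT3 the lowest, and the log2 fold change was 0.24 (SE 0.18). Zfp54 is the member that shares antisense sequence with another gene, Gm49691, over 81 of its windows of 100 bases (3.7%), and without knowledge of the strand those reads cannot be told apart.

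Zfp677 was at 1204, 1580 and 1289 in KO1, KO2 and KO3, against 1551, 1481 and 1246 in WT1, WT2 and WT3, a log2 fold change of -0.07 (SE 0.13). Zfp160 was at 2245, 2751 and 2130 in KO1, KO2 and KO3, against 2440, 2332 and 1956 in WT1, WT2 and WT3, a log2 fold change of 0.08 (SE 0.13). The WT values of Zfp677 lay inside the KO range, and those of Zfp160 overlapped it. Leaving out 1 library turned the sign of each of these small values, Zfp160 to -0.03 without KO2 and Zfp677 to 0.01 without KO1.

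**Figure D1:**
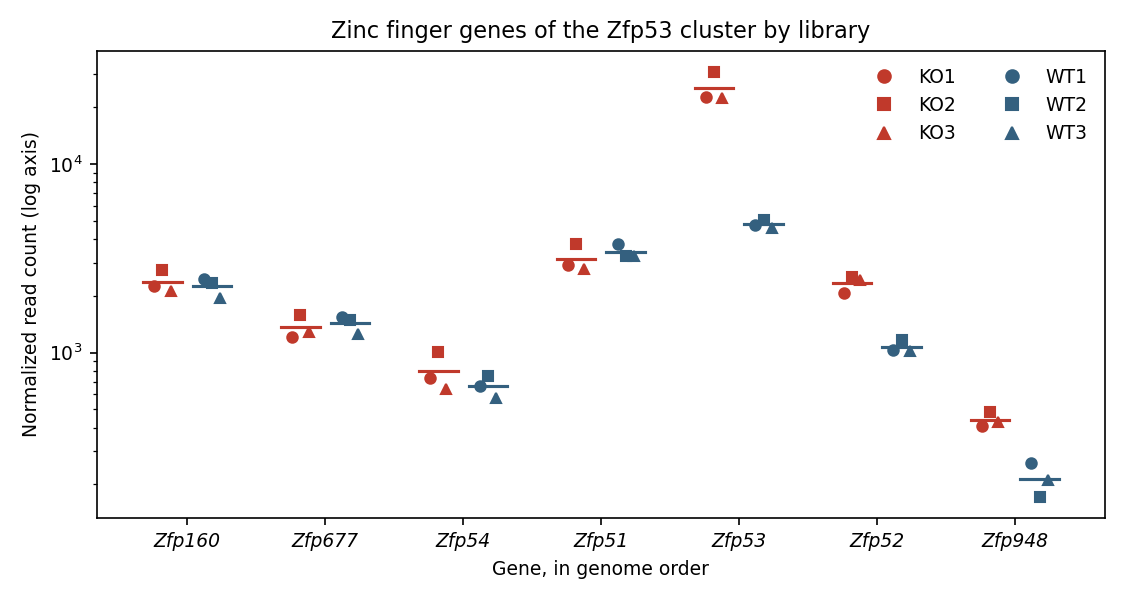
Normalized read count of each of the 7 genes on a log axis, in genome order, with KO libraries in red at the left of each gene and WT libraries in blue at the right, symbols for library numbers and short lines for group means. KO and WT points are apart for Zfp53, Zfp52 and Zfp948 and overlap for the other 4 genes.

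Of the 7 genes, all passed the filter on low values (a mean of at least 10), and limma called 3, each of them higher in KO cells. Over the whole table, limma called 196 of 13022 tested rows at a Benjamini-Hochberg adjusted p under 0.05, which is 1.51% in either direction, and 155 rises, which is 1.19%. The groups did not overlap in 3 of the 7 genes and in 18.8% of all tested rows. Zfp948 was not called without KO1, KO2, WT2 or WT3. Since the genes were selected on this contrast, nothing is read from these counts. The median log2 fold change was 0.24 over the 7 genes, which is the value of Zfp54, and 0.00 over all genes.

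Without KO3, the library with the highest summed markers of other cells, the log2 fold changes were 2.46 for Zfp53, 1.09 for Zfp52, 1.07 for Zfp948, 0.38 for Zfp54, 0.15 for Zfp160, -0.04 for Zfp677 and -0.04 for Zfp51, and the same 3 genes were called. Without KO2, which is 1 of the 2 libraries with Y-linked transcripts, Zfp53 was at 2.23. With the summed Y-linked level as a covariate and every library kept, Zfp53 was at 2.38 and the same 3 genes were called.

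Levels of different genes were compared per kb of transcript. In WT cells Zfp53 at 1560 ± 83.0 and Zfp51 at 1328 ± 112 normalized reads per kb led the cluster, followed by Zfp160 at 590 ± 66.9 and Zfp677 at 490 ± 54.9 (SD, n = 3 each), which overlapped within 1 SD. Zfp52 at 339 ± 25.7 and Zfp54 at 289 ± 38.2 were next and overlapped within 1 SD, and Zfp948 was last at 80.5 ± 16.3. In KO cells Zfp53 stood at 8233 ± 1567, far above Zfp51 at 1221 ± 205. Zfp52 was next at 740 ± 74.0, ahead of Zfp160 at 625 ± 87.0, a pair of neighbours in the order that overlapped within 1 SD. Zfp677 at 467 ± 67.7, Zfp54 at 345 ± 81.8 and Zfp948 at 166 ± 15.2 closed the order, with Zfp677 and Zfp54 overlapping within 1 SD. These SDs are spreads between libraries, and the genes of a pair were measured in the same libraries. In each pair said to overlap, the gene named first was the higher in every library of that group.

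Zfp53 therefore made up a different share of the cluster's transcripts in the groups. It was 69.3%, 70.8% and 68.9% of the 7 genes' summed level per kb in KO1, KO2 and KO3, against 31.6%, 34.4% and 34.2% in WT1, WT2 and WT3. The share of Zfp51 was 10.7%, 10.3% and 10.2% in KO libraries and 29.8%, 26.4% and 29% in WT libraries, although its level overlapped between them. Summed over the 7 genes the level per kb was 11797 ± 2063 in KO cells and 4677 ± 294 in WT cells (SD, n = 3 each), a ratio of 2.52. Without Zfp53 the sums were 3564 ± 497 in KO cells and 3117 ± 247 in WT cells, a ratio of 1.14.

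**Figure D2:**
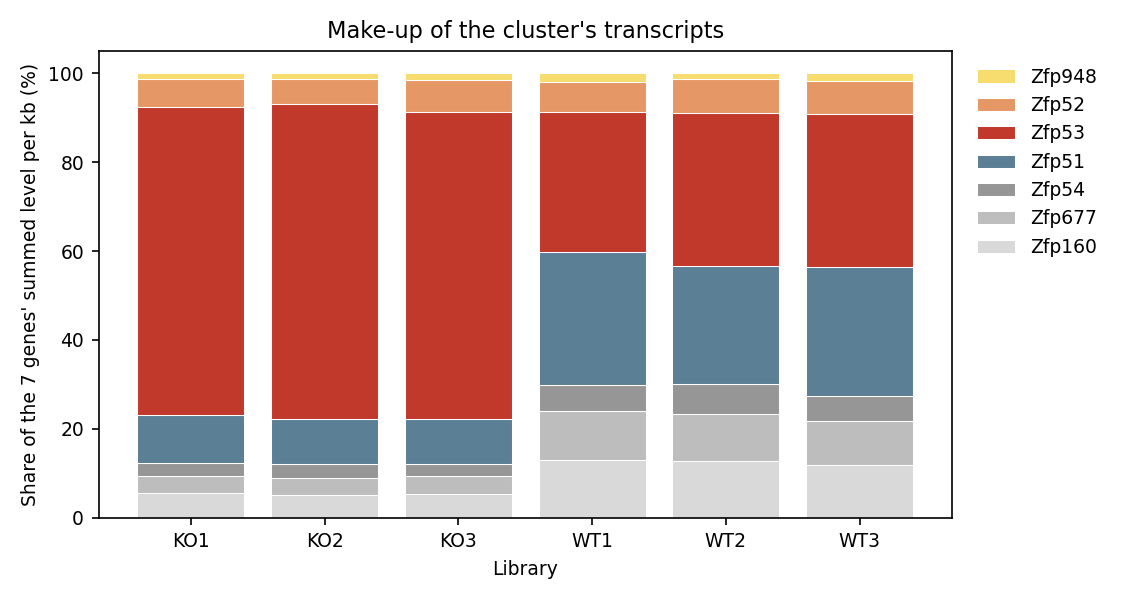
Share of each gene in the summed normalized reads per kb of the 7 genes, in percent, as stacked bars for KO libraries (left) and WT libraries (right). The red segment of Zfp53 takes 68.9% to 70.8% in KO libraries and 31.6% to 34.4% in WT libraries.

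Ratios of levels between members also differed between the groups, with 1 exception among those given here. Zfp53 over Zfp51 per kb was 6.73 ± 0.204 in KO cells and 1.18 ± 0.121 in WT cells (SD, n = 3 each). Zfp53 over Zfp52 was 11.1 ± 1.57 in KO cells and 4.61 ± 0.132 in WT cells, so this neighbouring pair did not keep a fixed ratio. Zfp52 over Zfp948 was 4.47 ± 0.242 in KO cells and 4.37 ± 1.2 in WT cells, which differ by less than the spread in WT cells.

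Along the chromosome, the 3 genes that were higher in KO cells were the last 3 of the row, and the 4 genes before them summed to 2658 ± 437 normalized reads per kb in KO cells and 2697 ± 235 in WT cells (SD, n = 3 each). Genes transcribed the other way lie close to some members in GENCODE. The noncoding gene Gm26753 starts 123 bases from the start of the Zfp53 transcript, and Gm49691 starts 107 bases from that of Zfp51. The noncoding gene 9330136K24Rik runs across the end of Zfp53 and the start of Zfp52 on the other strand, with 0 bases of shared exon in Zfp53 and 11 in Zfp52.

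Within 0.5 Mb beyond the window of the cluster on either side, 9 other genes of the table were found and 8 were tested. Of those 8, 7 lie on the Zfp948 side. Among these 7 limma called 3, all rises, against 1.61% of all tested genes at 1 row each. With so few genes tested on the other side, the sides are not compared. The first gene past Zfp948, Zfp983, begins 61.2 kb after it and averaged 1307 ± 145 in KO cells and 1257 ± 25.7 in WT cells (SD, n = 3 each). Its log2 fold change was 0.05 with a limma adjusted p of 0.879. Its promoter shares 10 runs of 12 bases with that of Zfp948, more than any other promoter does, and any bearing of this on level was not tested. Beyond it Zfp760 had 1273, 2168 and 1199 normalized reads in KO1, KO2 and KO3, against 358, 383 and 216 in WT1, WT2 and WT3. Its log2 fold change was 2.26 (SE 0.27, limma adjusted p 0.00379), and KO2 stood well above the other KO libraries.

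Zfp229 had 196, 264 and 129 in KO libraries against 61.4, 42.9 and 49.4 in WT libraries, with 1.87 as log2 fold change (SE 0.28, limma adjusted p 0.0121), a call lost without KO1, KO2, WT2 or WT3. Zfp820 had 116, 205 and 191 in KO libraries against 30.7, 29.7 and 30.9 in WT libraries, with 2.41 as log2 fold change (SE 0.26, limma adjusted p 0.00168). These rises did not run on without a break. Zfp995, next along, averaged 758 ± 62.8 in KO cells and 690 ± 6.93 in WT cells (SD, n = 3 each; log2 fold change 0.13, limma adjusted p 0.642), and Zfp942 and Zfp943 had log2 fold changes of -0.09 and -0.02. On the side of Zfp160, Ppp2r1a, the scaffold subunit of a protein phosphatase, averaged 6103 ± 261 in KO cells and 6293 ± 295 in WT cells, and the receptor gene Vmn1r233 was below the filter, at 0 in all libraries but WT3.

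**Figure D3:**
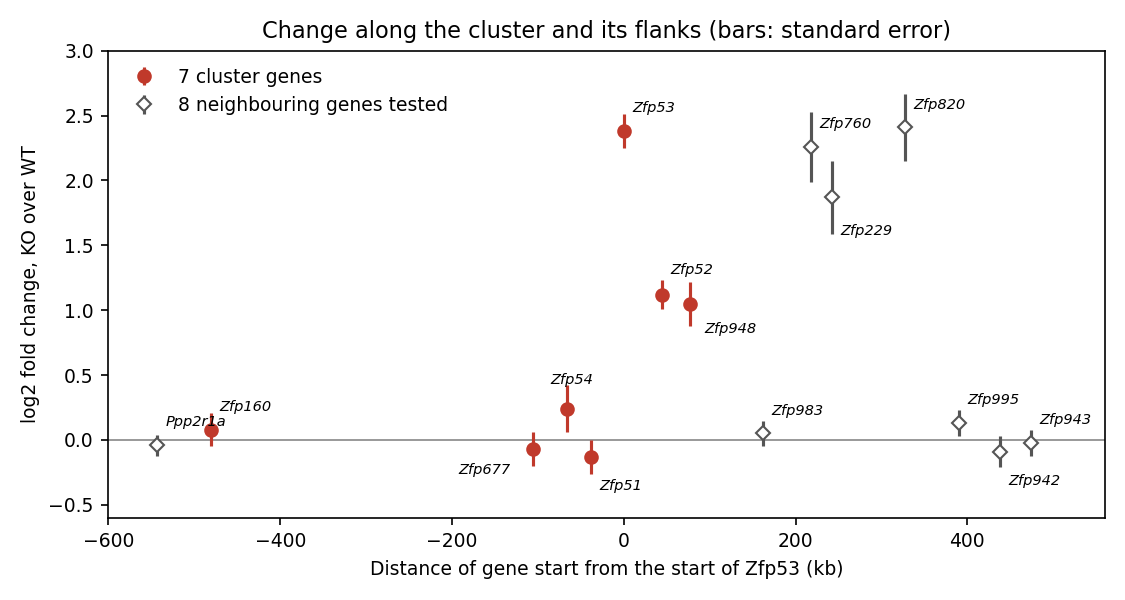
Log2 fold change of KO over WT against the distance of a gene's start from that of Zfp53, in kb, for the 7 cluster genes (red) and the 8 neighbours tested (open), with standard errors. Zfp53, Zfp52 and Zfp948 lie at 2.38, 1.12 and 1.05, and further right Zfp760, Zfp229 and Zfp820 lie at 2.26, 1.87 and 2.41 among genes near 0.

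The cluster was then set beside the other KRAB zinc finger genes, taken by protein sequence and not by value. Of 222 such genes outside the cluster, 196 were tested, and limma called 5 (2.55%), all rises. The share called over all genes, at 1 row each, was 193 of 11952 (1.61%). Of the 196, 36 were at an unadjusted limma p under 0.05, and the median log2 fold change was 0.09. Over all genes, at 1 row each, 1574 of 11952 tested were at an unadjusted limma p under 0.05. Without KO3 limma called 9 of the KRAB genes outside the cluster. In the fit of all libraries limma called 4 of 32 on chromosome 17 (12.5%), with a median of 0.13. On the other chromosomes it called 1 of 164 (0.61%), with a median of 0.07. Zfp760, Zfp229 and Zfp820 are 3 of the 5. The fourth, Zfp870, lies elsewhere on the chromosome (chr17:32879221-32891641) and averaged 239 ± 48.4 in KO cells and 65.2 ± 16.5 in WT cells (SD, n = 3 each; log2 fold change 1.87, SE 0.24, limma adjusted p 0.0052). The fifth, Zfp354c on chromosome 11, averaged 1255 ± 124 in KO cells and 697 ± 41.3 in WT cells (log2 fold change 0.84, SE 0.11, limma adjusted p 0.00556). Ordered by log2 fold change among 203 tested KRAB genes, members included, Zfp53 was at place 3, Zfp52 at 8, Zfp948 at 10, Zfp54 at 57, Zfp160 at 106, Zfp677 at 155 and Zfp51 at 170.

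By level per kb, Zfp53 was first of the 229 KRAB genes in KO cells and in WT cells alike. Zfp110 came next, at 1660 in KO cells and 1494 in WT cells, close to the 1560 of Zfp53 in WT cells. Zfp51 was at place 5 in KO cells and 4 in WT cells. Zfp52 stood at place 20 in KO cells and 65 in WT cells, and Zfp948 at 116 in KO cells and 137 in WT cells. Zfp160 held place 30 in KO cells and 31 in WT cells, Zfp677 47 and 41, and Zfp54 66 and 75. Each gene was taken at its row with the highest total. A gene whose reads are spread over several rows can therefore rank too low here, while the members had a single row each.

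**Figure D4:**
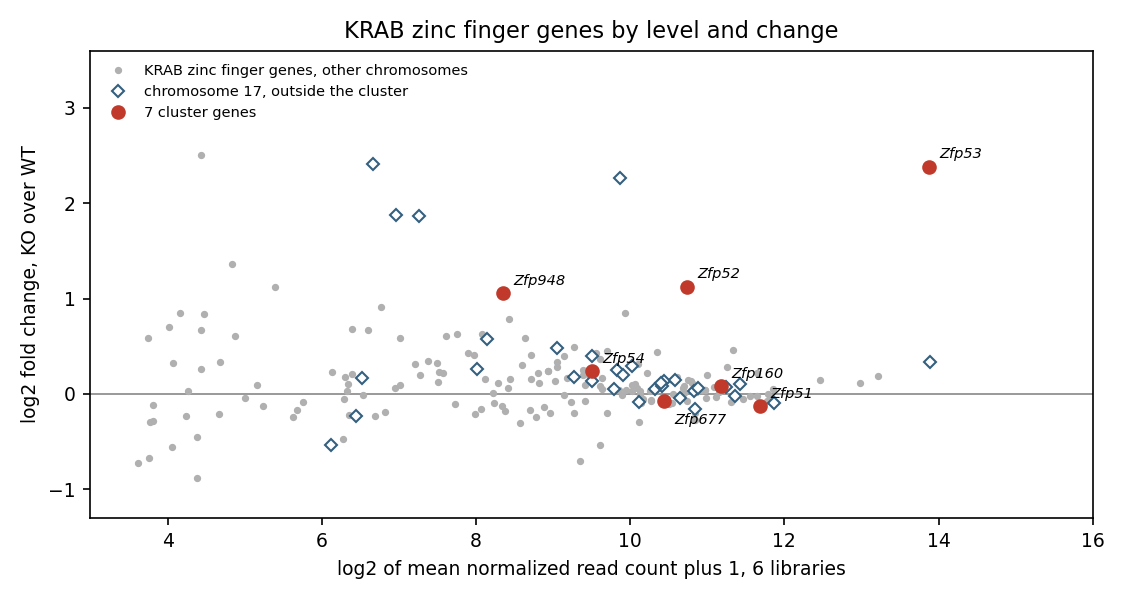
Log2 fold change of KO over WT against log2 of the mean normalized read count plus 1 over 6 libraries, for tested KRAB zinc finger genes of the cluster (red), of the rest of chromosome 17 (open) and of other chromosomes (grey). Zfp53 is among the highest in level and stands at 2.38, while most other genes, with a median of 0.09, lie near the line at 0.

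The 7 genes also moved together between libraries of the same group, which the choice of genes did not use. KO2 was the highest of the KO libraries in 7 of 7 genes, by 0.16 (Zfp52) to 0.55 (Zfp54) on the log2 scale over the mean of the other KO libraries, with a median of 0.34. WT3 was the lowest of the WT libraries in 6 of 7, the exception being Zfp948. The same order held in most KRAB genes outside the cluster. KO2 was highest of KO in 140 of 196 of them (71.4%, median 0.28) and WT3 lowest of WT in 131 (66.8%). Over all tested rows KO2 was highest in 30.7%, with a median of 0.00, and WT3 lowest in 34.1%. KO2 was also the library with the fewest reads and 1 of the 2 with Y-linked transcripts, and the part of either in this order was not tested.

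**Figure D5:**
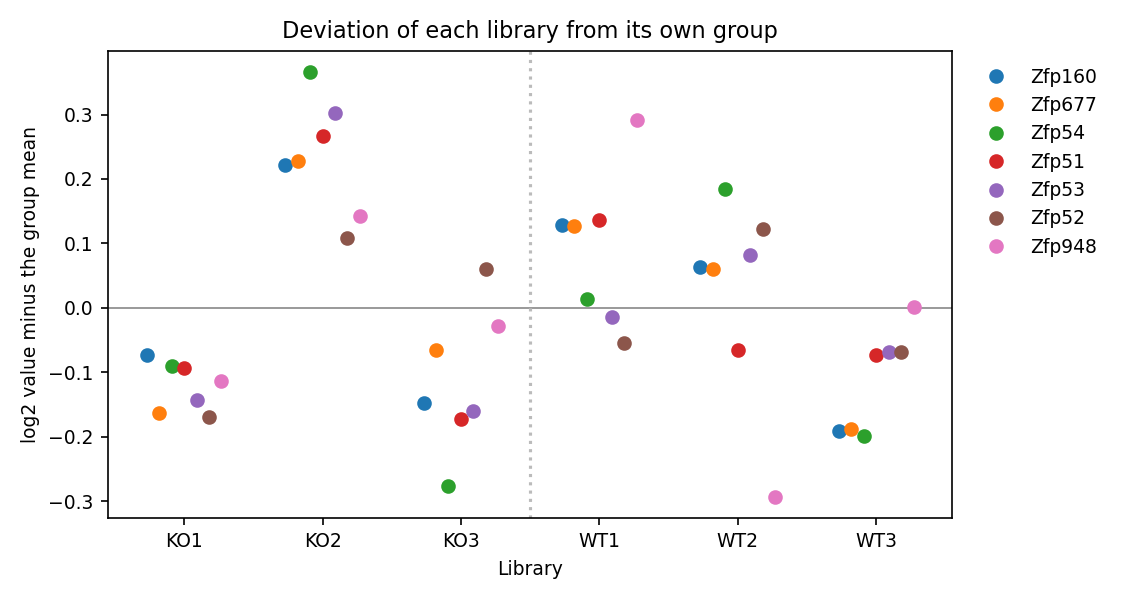
Deviation of each library from the mean of its own group, on the log2 scale, for the 7 genes (colours), with KO libraries left of WT libraries. All 7 points of KO2 lie above 0, from 0.11 to 0.37, and 6 of 7 points of WT3 lie below 0.

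Of 22 corepressor genes of the KRAB pathway in the table, 21 were tested. In limma 2 rose, 1 fell and 18 did not pass, with a median log2 fold change of 0.04. The share called was 14.3%, against 1.61% over all genes at 1 row each. Trim28, the partner of the KRAB box, was the one that fell (-3.38, SE 0.22, limma adjusted p 0.000135). Resf1, which works with Setdb1, averaged 512 ± 124 in KO cells and 101 ± 11.4 in WT cells (SD, n = 3 each; log2 fold change 2.31, limma adjusted p 0.00054). Morc3, a chromatin ATPase, averaged 30359 ± 7053 in KO cells and 10411 ± 847 in WT cells (log2 fold change 1.52, limma adjusted p 0.00129). The row taken for Setdb1, at a mean of 8.39 in KO cells and 5.84 in WT cells, was below the filter on low values. It need not hold all reads of the gene.

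The genes most like the cluster were sought by profile, as the root mean square difference on the log2 scale over 6 libraries from the mean profile of the 7 genes, among 9660 genes. Abhd15 (0.07), Pqlc3 (0.09), D130040H23Rik (0.09), G0s2 (0.09) and Cep290 (0.10) were nearest. The mean profile, at 0.55, 0.90 and 0.56 in KO1, KO2 and KO3 and 0.09, 0.02 and -0.11 in WT1, WT2 and WT3, averages 7 genes whose own profiles differ. Against the profile of Zfp53 alone, a choice made after the values were seen, Resf1 (0.12), Klhl6 (0.18), Zfp820 (0.22), Bend4 (0.23) and Cap2 (0.24) were nearest.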

How the data were processed

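RNA of 3 KO and 3 WT libraries was measured by paired sequencing, per the labels' protocols. Per the submitters' processing notes, the tools were DESeq2, HTSeq and STAR and the build mm10, with neither versions nor roles. The authors deposited 1 table on a log10 scale, found from the values to be log10 of 1 plus reads divided by a size factor. Turned back, 100% of values were whole multiples of 1 step per library (tolerance 0.01). How reads of paralogs were assigned, and the strand, are not given in the sources used here.

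The rows were named from RefSeq (18811) and GENCODE (104), leaving 133 without a symbol. limma 3.58.1 (R 4.3.3, mean-variance trend) was fitted on log2 of the normalized count plus a pseudocount of 1, all 6 libraries, no covariate, for rows with a mean of at least 10. Rows were called at a two-sided Benjamini-Hochberg adjusted p under 0.05. The pseudocount understates the change of low genes. The fit was first tested on simulated data. Fingers, KRAB boxes (at least 10 of 13 scored positions) and motifs were found in Python 3.11.15 with Biopython 1.88.

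One marker list is not reported here. The members and lists were chosen with earlier results of these data known. Named genes were the 7 members, the tested neighbours, called KRAB genes and corepressors, and the 5 genes nearest in profile. Alternatives were the pseudocount, filter, scaling, variance model, threshold, replicate block and leaving out each library. Others were a covariate for the summed Y-linked level and rows summed per gene. No libraries were duplicates, since pairs of a group differed by 18.7 to 135 times the sampling variance.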

Additional observations from a re-analysis of the deposited data

How the results depend on the processing

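The count of rows called, 196, was 124 without the trend and 111 at an adjusted p under 0.01, and 111 to 199 over all settings that kept every library. Leaving out 1 library gave 113 (without KO2) to 553 (without KO3), with 124 without WT1 and 127 without WT3. Of the 7 genes, 3 were called, or 2 without the trend, at an adjusted p under 0.01, with the replicate block, and without KO1, KO2, WT2 or WT3, where Zfp948 was the one lost. Neighbours called numbered 2 or 3, and KRAB genes outside the cluster 4 to 9 over left-out libraries, with 9 without KO3. With the replicate block 175 rows were called (143 rises, 32 falls). Deviations of KO1 and WT1 had a correlation of -0.312, KO2 and WT2 0.256, and KO3 and WT3 0.363. Libraries of unlike number ranged from -0.441 (KO3 and WT2) to 0.371 (KO1 and WT2). With 3 libraries a group, these values cannot show whether the numbers pair the libraries, and the main fit did not pair them. Log2 fold changes ran from 2.23 to 2.46 for Zfp53, 1.07 to 1.21 for Zfp52 and 0.91 to 1.20 for Zfp948. Among the others, Zfp54 ran from 0.06 to 0.38, Zfp51 from -0.26 to -0.04, Zfp160 from -0.03 to 0.15 and Zfp677 from -0.19 to 0.01. No scaling moved the median of all rows by more than 0.057 on the log2 scale. A looser finger pattern gave 19 fingers in Zfp51 and left the other 6 proteins as they were. Counts of Zfp948, at 156 to 567 reads a library, were the thinnest behind any member.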
